A study of Mus musculus with 27 samples.

Results

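The NOTCH pathway was followed in 10 genes across mouse models of a cancer of developing T cells, T cell acute lymphoblastic leukaemia. The genes were the receptors Notch1, Notch2 and Notch3, the nuclear partners Rbpj and Maml1, and the targets Hes1, Heyl, Dtx1, Nrarp and Ptcra. They were chosen by symbol, and all 10 had a row in each of the 3 deposited count tables, out of 22729 symbols common to those tables. A NOTCH receptor is cut after it binds a Delta or Jagged ligand on a neighbouring cell, and the freed intracellular part enters the nucleus, where it joins RBPJ and a Mastermind protein to switch on target genes. In the thymus NOTCH1 commits progenitors to the T lineage and is needed up to the pre-T cell receptor checkpoint, and activating NOTCH1 mutations are frequent in human T cell acute lymphoblastic leukaemia.

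RNA was sequenced from 27 libraries in 9 groups of 3. Thymus came from C57BL/6 mice that had received a bone marrow transplant, and the 12 mice were labelled AKT(E17K) with constitutive TAL1, AKT(E17K), TAL1, or empty vector. AKT(E17K) is an activated form of the kinase AKT1, and TAL1 is a transcription factor that is switched on in many of these leukaemias. The labels name neither the promoter of the vectors nor the age of the mice, and a transplanted thymus also holds cells of the host. The other 15 libraries came from ProT cells, a cell line in which TAL1 is described as induced through CreER and LoxP by 4OH tamoxifen, taken at 0, 6, 12, 18 and 24 h. The labels do not say whether ProT libraries were separate cultures, so their p-values reflect no more than the spread among the libraries at hand, and that spread may be technical. The title of the series puts the question of whether TAL1 acts together with PI3K/AKT pathway activation.

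Counts in genes per library came to 2073752 to 3661056 in the table of AKT(E17K) mice, 3893990 to 11302098 in the table of TAL1 and empty vector mice and 2660641 to 6599146 in ProT cells. TAL1 mice were sequenced more deeply than empty vector mice, with 7155918 to 11302098 against 3893990 to 5915285 counts and no overlap. Mouse Tal1 had 0 counts in 11 of the 12 mice and 7 counts in AKT(E17K) mouse m121, and in ProT cells it averaged 3007, 3229, 2088, 2247 and 2019 CPM (counts in genes scaled to a common library size) at 0, 6, 12, 18 and 24 h, so these counts did not follow the labels and groups are named below as they were labelled. Markers of T cells summed to 3451 to 6010 CPM in thymus and 523 to 635 CPM in ProT cells. Cd4, Cd8a and Cd8b1, which define double-positive thymocytes, were at 0 in all ProT libraries at 0 h, and the summed markers of that stage came to at most 19.3 CPM in any ProT library, against at least 2390 CPM in any thymus. Thymic epithelium markers summed to at most 35.2 CPM, with Foxn1 at 0 in 8 of the 9 groups.

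Promoter windows of 250 bases before the RefSeq start (GRCm38.p6) were read for the 8 of 10 genes that matched, all but Hes1 and Heyl. Rbpj had 2 windows that overlap each other, with 132 and 250 bases in annotated exons. All 250 bases of the Dtx1 window were also exonic. The Notch1 window, chr2:26503823-26504072, lies inside the gene span given below, so not every window lies upstream of its gene. They were searched on both strands for TGGGAA, the core of the RBPJ site, and for its longer form GTGGGAA. The general E box CANNTG and GATA were searched as well. TAL1 with its E protein partners binds only some forms of CANNTG, which other factors also bind. The shorter RBPJ motif TGGGAA lies within GTGGGAA, and the other motifs were searched on their own. TGGGAA was found in windows of Rbpj and Ptcra, 2 of 8 genes, against 21.6% of 32851 promoter windows. GTGGGAA was in none of the 8 and in 5.42% of all windows, CANNTG in Rbpj, Nrarp and Ptcra and in 66.2% of all, and GATA in Notch3, Rbpj, Maml1, Dtx1 and Nrarp and in 53.6% of all. The windows of Nrarp and Ptcra are shown because Nrarp had the largest difference between 12 and 6 h among the 8 genes tested in ProT cells, and because Ptcra was the target with both kinds of motif. Capitals mark TGGGAA and CANNTG as sequence only, and binding of TAL1 or RBPJ there was not measured. The CANNTG match in Nrarp reads CACGTG and those in Ptcra read CAGCTG, and a match does not mark a site as one of TAL1. The Nrarp window is chr2:25180508-25180757 on the plus strand and the Ptcra window is chr17:46763713-46763962 on the minus strand.
Nrarp: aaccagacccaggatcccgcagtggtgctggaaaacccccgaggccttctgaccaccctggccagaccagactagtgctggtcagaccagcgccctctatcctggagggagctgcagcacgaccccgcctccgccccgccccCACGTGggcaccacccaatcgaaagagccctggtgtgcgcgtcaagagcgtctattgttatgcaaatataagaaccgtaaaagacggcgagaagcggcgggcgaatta
Ptcra: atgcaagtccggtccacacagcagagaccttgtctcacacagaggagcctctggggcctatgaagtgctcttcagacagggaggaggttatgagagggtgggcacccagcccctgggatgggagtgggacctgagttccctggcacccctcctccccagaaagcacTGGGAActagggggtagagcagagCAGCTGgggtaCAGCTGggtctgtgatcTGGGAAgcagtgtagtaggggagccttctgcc

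In ProT cells, 2 receptors and 3 targets were higher at 12 h than at 0 h and than at 6 h. Hes1 and Dtx1 were also called higher at 18 and 24 h, and Nrarp and Notch1 at 24 h. The calls of Dtx1 at 18 h and of Notch1 at 24 h were lost when some single libraries were left out. At 12 h against 0 h the targets Dtx1, Hes1 and Nrarp were higher by 1.13, 0.93 and 0.86 on the log2 scale, and the receptors Notch2 and Notch1 by 0.54 and 0.49. These were 5 of the 8 genes that passed the filter on low counts, all higher, where 12.0% of the 13610 genes tested were called in either direction and 6.33% were called higher. The median log2 fold change of the 8 genes was 0.51, against -0.01 over all genes. Notch3, Rbpj and Maml1 were not called at any time, though without TMM scaling Rbpj was at 24 h (0.41, edgeR adjusted p = 0.0293), and Heyl and Ptcra did not pass the filter. Genes were called at an adjusted p under 0.05 in edgeR's quasi-likelihood test with Benjamini-Hochberg adjustment over all genes of the table, which also stands behind the adjusted p-values below, and the 4 comparisons with 0 h share its 3 libraries.

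**Figure D1:**
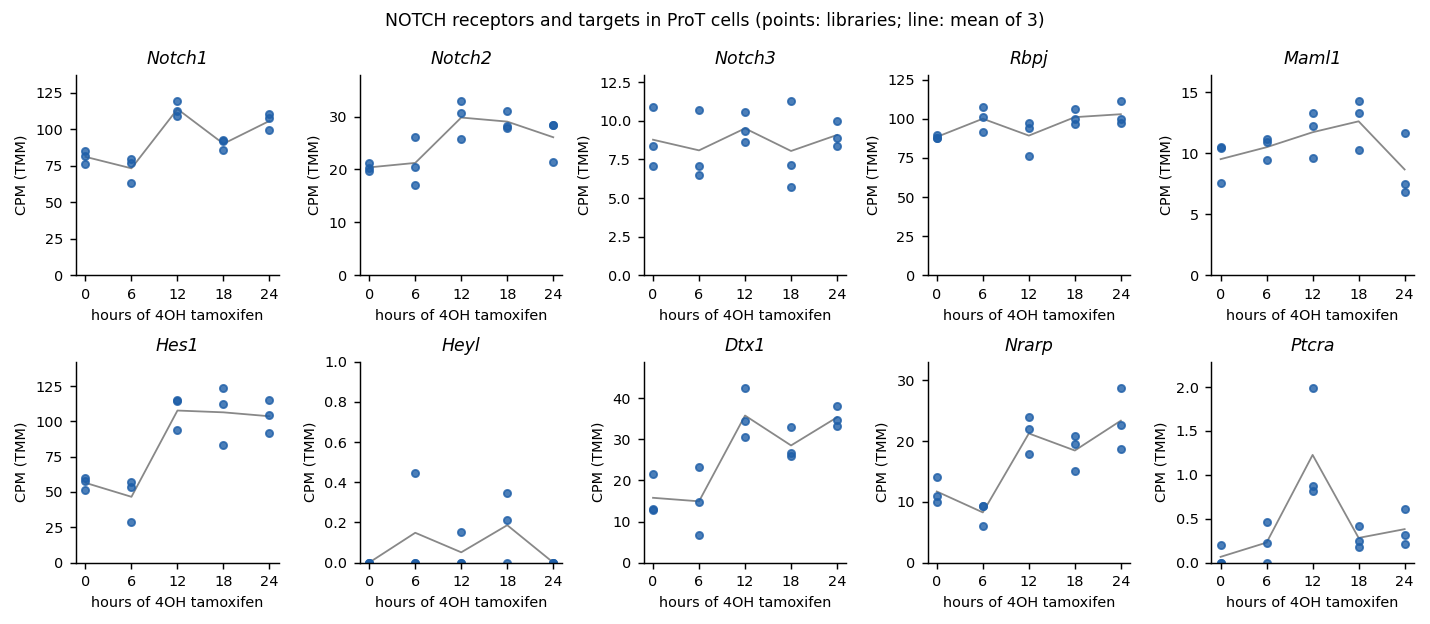
Level of each gene in ProT cells, in CPM scaled by the trimmed mean of M-values (TMM), against hours of 4OH tamoxifen. Points are libraries and the line joins the means of 3, and all Hes1 points from 12 h on, 83.5 CPM or more, lie above the points of 0 and 6 h, at most 60.2 CPM.

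Among the receptors, Notch1 (chr2:26457903-26516663 on the minus strand, GRCm38) had 82.0, 76.2 and 85.3 CPM at 0 h, 77.2, 63.2 and 79.4 CPM at 6 h, 120, 113 and 109 CPM at 12 h, 85.8, 92.5 and 92.2 CPM at 18 h, and 107, 110 and 99.5 CPM at 24 h. The 3 libraries of 12 h lay above all 9 libraries of 0, 6 and 18 h, and those of 24 h also lay above these 9. Notch1 was higher at 12 h than at 0 h by 0.49 ± 0.11 on the log2 scale (SE, n = 3 against 3, edgeR adjusted p = 0.00363) and at 24 h by 0.38 ± 0.11 (edgeR adjusted p = 0.0149), whereas the value at 18 h was 0.15 ± 0.11 (edgeR adjusted p = 0.429). The call at 24 h was lost without library 2 of 0 h or without library 1 or 2 of 24 h (edgeR adjusted p of 0.0528 to 0.0803). Genes on the opposite strand, 0610009E02Rik and Gm13568, overlap 10.4% of the Notch1 exon bases, and since the strand setting of the counting is not given in the sources used here, their reads cannot be told apart from those of Notch1 there.

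Notch2 (chr3:98013527-98150361 on the plus strand), a receptor used by many haematopoietic cells, had 19.7, 21.3 and 20.2 CPM at 0 h, 26.1, 20.5 and 17.1 CPM at 6 h, 25.8, 30.6 and 33.0 CPM at 12 h, 28.2, 31.1 and 27.8 CPM at 18 h, and 28.4, 28.4 and 21.4 CPM at 24 h. All libraries of 12, 18 and 24 h lay above those of 0 h, while those of 6 h ran from below the lowest of 0 h to just above the lowest of 12 h. Its differences from 0 h were 0.54 ± 0.16 at 12 h (edgeR adjusted p = 0.0296), 0.50 ± 0.17 at 18 h (edgeR adjusted p = 0.0549) and 0.36 ± 0.17 at 24 h (edgeR adjusted p = 0.122). The call at 12 h was lost when any 1 library was left out other than library 1 of 12 h, 5 of 6 cases, with edgeR adjusted p-values up to 0.0879.

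Notch3 (chr17:32120820-32166852 on the minus strand), a receptor expressed in early thymocytes, ranged from 5.69 to 11.3 CPM over the 15 libraries, and both ends of that range were at 18 h. Its log2 fold changes against 0 h lay between -0.10 and 0.15, none called. Rbpj (chr5:53466152-53657362 on the plus strand), the DNA-binding partner of every NOTCH receptor, had group means of 88.5, 100.1, 89.3, 101 and 103 CPM at 0, 6, 12, 18 and 24 h, and its largest difference from 0 h was 0.22 ± 0.11 at 24 h (edgeR adjusted p = 0.169). Maml1 (chr11:50255634-50292311 on the minus strand), a Mastermind coactivator, had means of 9.51, 10.5, 11.7, 12.6 and 8.67 CPM at these times, and its differences from 0 h lay between -0.09 and 0.43.

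Among the targets, Hes1 (chr16:30064384-30067796 on the plus strand), a transcriptional repressor of the HES family, had 57.7, 51.6 and 60.2 CPM at 0 h, 57.1, 28.8 and 53.9 CPM at 6 h, 115, 93.8 and 114 CPM at 12 h, 123.7, 112 and 83.5 CPM at 18 h, and 104, 115 and 91.7 CPM at 24 h. The 9 libraries from 12 h on lay above the 6 earlier ones, and library 2 of 6 h was the lowest of all. The differences from 0 h were 0.93 ± 0.17 at 12 h (edgeR adjusted p = 0.000657), 0.91 ± 0.17 at 18 h (edgeR adjusted p = 0.00141) and 0.88 ± 0.17 at 24 h (edgeR adjusted p = 0.000857). Hes1 was called at each of these times whichever library was left out.

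Dtx1 (chr5:120680202-120711927 on the minus strand), a Deltex E3 ubiquitin ligase that acts on NOTCH and is itself a NOTCH target, had 13.0, 12.8 and 21.6 CPM at 0 h, 23.3, 6.75 and 14.7 CPM at 6 h, 42.5, 34.4 and 30.5 CPM at 12 h, 33.1, 26.6 and 25.9 CPM at 18 h, and 33.3, 38.1 and 34.8 CPM at 24 h. Again no library from 12 h on fell within the range of 0 and 6 h. Dtx1 was higher than at 0 h by 1.13 ± 0.24 at 12 h (edgeR adjusted p = 0.00283) and by 1.11 ± 0.25 at 24 h (edgeR adjusted p = 0.00243). The difference at 18 h, 0.80 ± 0.25 (edgeR adjusted p = 0.0469), was no longer called without any 1 library other than library 3 of 0 h, 5 of 6 cases with edgeR adjusted p-values up to 0.210, and in DESeq2 (adjusted p = 0.114).

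Nrarp (chr2:25180758-25183339 on the plus strand), an ankyrin repeat protein that binds the NOTCH complex and damps its output, had 10.04, 14.2 and 10.9 CPM at 0 h, 9.36, 6.07 and 9.35 CPM at 6 h, 24.0, 22.0 and 17.8 CPM at 12 h, 20.9, 15.04 and 19.5 CPM at 18 h, and 22.7, 28.8 and 18.7 CPM at 24 h. The libraries of 6 h lay below all others, and those from 12 h on lay above those of 0 h. The differences from 0 h were -0.49 ± 0.23 at 6 h (edgeR adjusted p = 0.908), 0.86 ± 0.21 at 12 h (edgeR adjusted p = 0.00653), 0.66 ± 0.21 at 18 h (edgeR adjusted p = 0.0519) and 0.998 ± 0.206 at 24 h (edgeR adjusted p = 0.00131). The gene Gm38287 on the opposite strand overlaps 2051 of the 2582 exon bases of Nrarp, and its counts equalled those of Nrarp in 8 of the 15 ProT libraries and differed by at most 3 in the others, so the 2 transcripts cannot be told apart and the values of Nrarp are uncertain.

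Ptcra (chr17:46755663-46763712 on the minus strand), the pre-T cell receptor alpha chain, and Heyl (chr4:123233556-123249875 on the plus strand), a repressor of the HEY family, were close to the counting floor in ProT cells. Ptcra had summed counts of 1, 4, 23, 4 and 7 over the 3 libraries of 0, 6, 12, 18 and 24 h, and the 12 h libraries, at 0.871, 1.99 and 0.820 CPM, were the highest of the 15. The ratio of 12 h to 0 h was 13.9, with an exact 95% interval from counting alone of 2.26 to 572. Heyl had 0 counts at 0 h, where 3 counts would be 0.250 CPM over the group, and summed counts of 2, 1, 3 and 0 at the later times.

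At 6 h none of the 8 genes was called by edgeR against 0 h, where 0.00% of all genes were called. Nrarp alone of the 8 had an unadjusted p under 0.05, where 734 of all 13610 genes did, and DESeq2 called none of the 8. The step to 12 h was tested against 6 h as well, and 5 of the 8 genes were higher, with 10.9% of all genes called in either direction 5.54% higher and 5.31% lower. The differences were 1.36 ± 0.21 for Nrarp (edgeR adjusted p = 7.31e-05), 1.22 ± 0.23 for Dtx1 (edgeR adjusted p = 0.00105), 1.20 ± 0.17 for Hes1 (edgeR adjusted p = 2.89e-05), 0.64 ± 0.11 for Notch1 (edgeR adjusted p = 0.000264) and 0.47 ± 0.15 for Notch2 (edgeR adjusted p = 0.0498). Library 2 of 6 h was the lowest of its group for Notch1, Notch3, Maml1, Hes1, Dtx1 and Nrarp, and leaving out any 1 library kept Hes1 between 0.95 and 1.38, Dtx1 between 0.89 and 1.75, Nrarp between 1.19 and 1.47 and Notch1 between 0.54 and 0.69, all still called. Notch2 was not called in 4 of these 6 cases, without library 2 or 3 of either time, nor in DESeq2 (adjusted p = 0.0678). Over all genes with at least 20 counts in a pair of libraries, library 1 stood apart at both times. Its chi-square per degree of freedom against libraries 2 and 3 was 22.8 and 18.7 at 6 h, and 19.9 and 18.4 at 12 h. Libraries 2 and 3 gave 3.78 at 6 h and 7.31 at 12 h, and pairs of the other times 2.39 to 5.38. The cause was not tested.

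At 18 h 2 of the 8 genes were called, Hes1 and Dtx1, where 8.82% of all genes were called and 4.89% were higher. At 24 h 4 were called higher, Notch1, Hes1, Dtx1 and Nrarp, where 18.7% of all genes were called 9.43% higher and 9.30% lower. In the test over all 5 times 5 of the 8 genes were called, where 18.0% of all genes were, with edgeR adjusted p-values of 4.28e-06 for Hes1, 1.91e-05 for Nrarp, 0.0003 for Notch1 and for Dtx1 and 0.0347 for Notch2. The call of Notch2 over all times was lost in 8 of 15 cases that left out 1 library, with an edgeR adjusted p up to 0.0751.

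**Figure D2:**
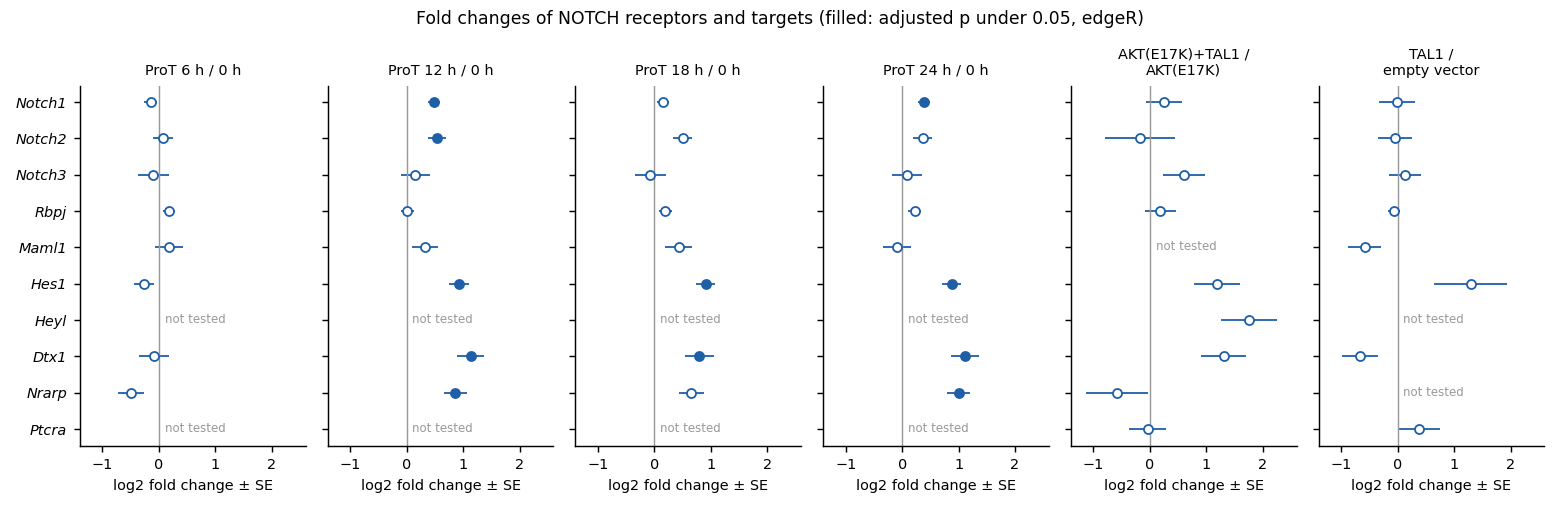
Log2 fold change of each gene with its SE in 6 comparisons of 3 with 3 libraries, the later time or the group with TAL1 over its reference. Filled points are called by edgeR, and filled points appear from 12 h on in ProT cells, 5 at 12 h, 2 at 18 h and 4 at 24 h, and in neither comparison of mice.

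Of 55 further genes of the pathway, 47 passed the filter in ProT cells, and 6 were called at 12 h against 0 h, 4 higher and 2 lower, a share close to the 12.0% of all genes called, so the count says nothing particular to the pathway. Of 9 tested targets other than the 5 above, 3 were higher. Il2ra, the alpha chain of the interleukin-2 receptor and a marker of early thymocytes, averaged 523 ± 33.7, 449 ± 147, 1026 ± 95.7, 877 ± 91.0 and 1092 ± 22.0 CPM at 0, 6, 12, 18 and 24 h (SD, n = 3 each), and was higher by 0.97 ± 0.16 at 12 h (edgeR adjusted p = 0.000171). Ccnd3, cyclin D3, was higher by 0.41 ± 0.11 at 12 h (edgeR adjusted p = 0.0163) and Tcf7, a transcription factor of the T lineage, by 0.37 ± 0.12 (edgeR adjusted p = 0.0484). Of 13 nuclear partners 1 was higher, the corepressor Ctbp1, by 0.33 ± 0.11 (edgeR adjusted p = 0.0496). Of 16 genes of receptor processing and trafficking 1 was lower, Furin, the protease that matures the receptors, by -0.54 ± 0.15 (edgeR adjusted p = 0.0210). Of 8 genes of inhibition and turnover 1 was lower, Itch, a ubiquitin ligase that targets NOTCH, by -0.43 ± 0.14 (edgeR adjusted p = 0.0433).

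At 18 h 3 of the 47 genes were called, a smaller share than the 8.82% of all genes. All were higher, Il2ra by 0.75 ± 0.16, the insulin-like growth factor receptor Igf1r by 0.53 ± 0.16 and Ctbp1 by 0.38 ± 0.11. At 24 h 7 were called, again a smaller share than the 18.7% of all genes. Il2ra, Ccnd3, Igf1r and Ctbp1 were higher, and Itch, Notch4 and the acetyltransferase Kat2b were lower. Notch4, the fourth receptor, which is best known from endothelium, averaged 2.75, 1.77, 1.09, 1.55 and 0.352 CPM at 0, 6, 12, 18 and 24 h and was lower at 24 h by -2.94 ± 0.74 (edgeR adjusted p = 0.00633), on summed counts of 6 at 24 h against 31 at 0 h. At 6 h edgeR called none of the 47, and the smallest unadjusted p was that of Ctbp1, 0.0415. Ligands did not pass the filter in ProT cells. Dll1, Dll3 and Jag2 had at most 2 summed counts in any ProT group, Dll4 at most 7 and Jag1 10 to 26.

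Markers of several cell types differed between the same times in ProT cells, and their part in the result was not tested. The list of 6 early (double-negative) thymocyte markers held Kit, Il2ra, Cd44, Il7r, Erg and Lyl1. Its sum was 953 to 1057 CPM at 0 h, 713 to 1040 CPM at 6 h, 1364 to 1577 CPM at 12 h, 1220 to 1420 CPM at 18 h and 1498 to 1544 CPM at 24 h, with Il2ra the main part. At 12 h against 0 h this list was mixed, with Il2ra and Erg higher and Kit and Cd44 lower among 6 tested. Of 7 tested T cell markers, Cd3g (0.59) and Thy1 (0.56) were higher and Cd247 (-0.38) and Lat (-0.38) lower at 12 h. Of 6 tested myeloid markers, S100a8 and S100a9 were called lower at 12, 18 and 24 h (-0.87 and -0.93 at 12 h), and the myeloid sum was 48.2 to 63.8 CPM at 12 h against 69.9 to 79.0 CPM at 0 h, without overlap. Double-positive markers summed to 14.8 to 18.4 CPM at 12 h against 14.2 to 19.3 CPM at 0 h.

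Likeness in ProT cells was measured as the root mean square difference between centred log2 CPM over the 15 libraries, which share depth and scaling, and is given as a description. The 3 nearest genes to Hes1 were Il2ra (0.179), Acadsb (0.219) and Nlrp6 (0.225), where Hes1 itself had an SD of 0.606. The nearest to Dtx1 were Il2ra (0.238), Hes1 (0.269) and Tgfb2 (0.287), with an SD of 0.727 for Dtx1. The nearest to Nrarp, after the overlapping Gm38287 (0.0149), were Il2ra (0.206) and 2810417H13Rik (0.228), with an SD of 0.620. Il2ra was thus among the 3 nearest genes of each of these targets. The 2 nearest to Notch1 were the overlapping Gm13568 (0.0919) and Ifi47 (0.103), with an SD of 0.259, and the 3 nearest to Notch2 were Hk2 (0.0975), Idh3g (0.103) and Lta4h (0.121), with an SD of 0.284.

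In thymus, mice with AKT(E17K) and TAL1 had higher values of Heyl, Dtx1 and Hes1 than mice with AKT(E17K) alone, but no gene of the table was called. edgeR called 0 of 9 tested NOTCH genes, 3 of which had an unadjusted p under 0.05, and DESeq2 called 0. Of all 9782 genes 0.00% were called, with 709 at an unadjusted p under 0.05. The median log2 fold change was 0.25 over the 9 genes and -0.01 over all genes. In whole thymus, fewer cells of a type and less RNA per cell cannot be told apart.

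**Figure D3:**
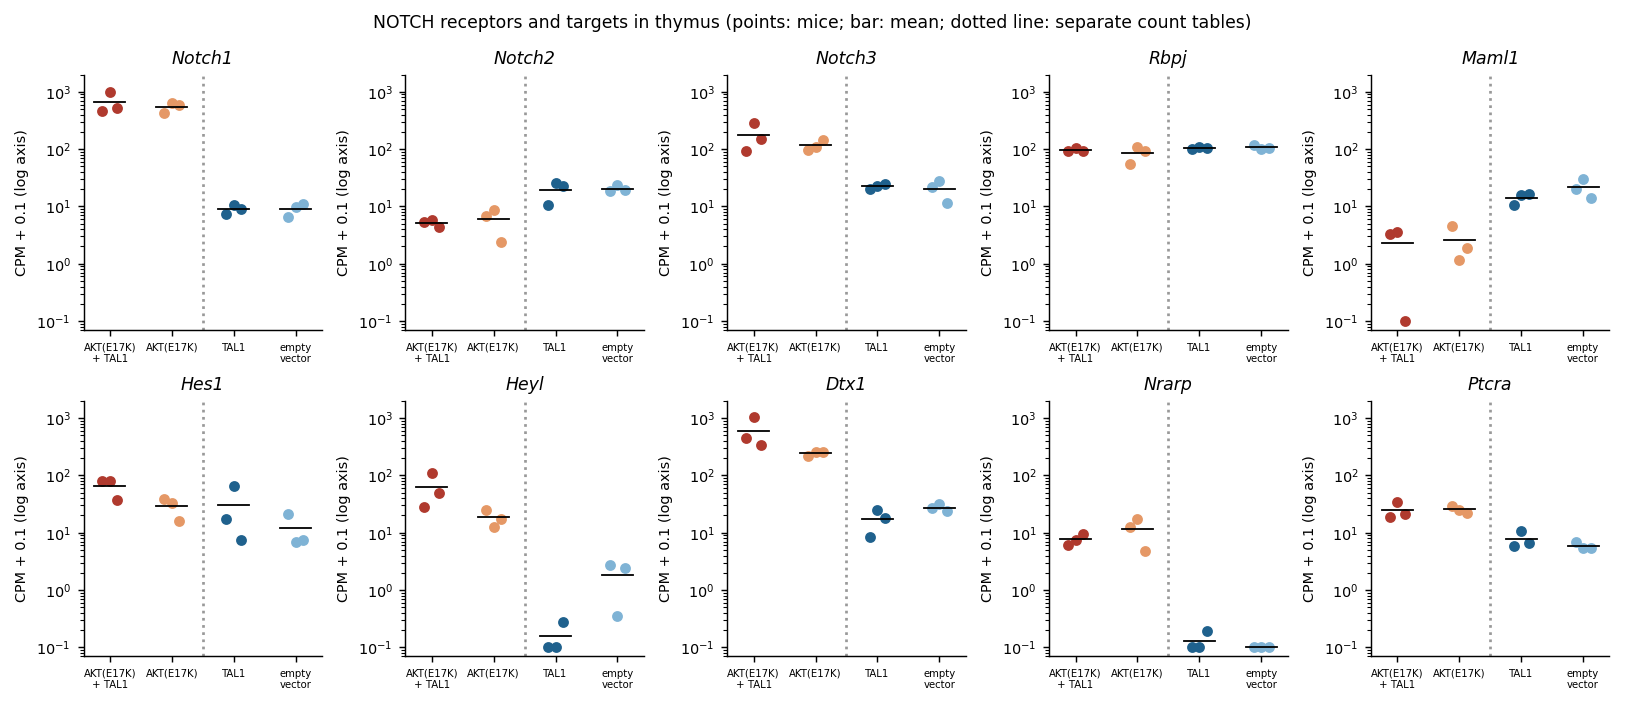
Level of each gene in the 12 mice, as TMM-scaled CPM plus 0.1 on a log axis, with points for mice and a bar for the mean of 3. The dotted line divides 2 count tables that were scaled separately, and all 3 Dtx1 points of AKT(E17K) with TAL1 mice, 333 CPM or more, lie above those of AKT(E17K) mice, at most 257 CPM.

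Heyl had 27.5, 111 and 49.9 CPM in AKT(E17K) with TAL1 mice, against 25.3, 12.6 and 17.5 CPM in AKT(E17K) mice. The groups did not overlap, by a narrow margin between the lowest and the highest mouse. The difference was 1.75 ± 0.50 on the log2 scale (unadjusted p = 0.00593, edgeR adjusted p = 0.527). Dtx1 had 441, 1031 and 333 CPM in AKT(E17K) with TAL1 mice, against 222, 257 and 251 CPM in AKT(E17K) mice, again without overlap. Its difference was 1.31 ± 0.39 (edgeR adjusted p = 0.540). How many of all genes separated in this way was not counted. Without mouse m117, the highest for both, the differences were 1.06 for Heyl and 0.68 for Dtx1.

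Hes1 had 80.3, 81.2 and 37.7 CPM in AKT(E17K) with TAL1 mice, against 39.1, 32.7 and 16.2 CPM in AKT(E17K) mice. Mouse m119 lay within the range of the AKT(E17K) mice, and the difference was 1.19 ± 0.40 (edgeR adjusted p = 0.615). Nrarp averaged 7.57 ± 1.67 CPM in AKT(E17K) with TAL1 mice and 11.5 ± 6.43 CPM in AKT(E17K) mice (SD, n = 3 each), and Ptcra averaged 24.7 ± 8.11 CPM in AKT(E17K) with TAL1 mice and 25.4 ± 3.65 CPM in AKT(E17K) mice. The groups overlapped for both genes.

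Of the receptors, Notch1 had 461, 975 and 521 CPM in AKT(E17K) with TAL1 mice, against 420, 640 and 584 CPM in AKT(E17K) mice, and Notch3 had 94.0, 283 and 150 CPM in AKT(E17K) with TAL1 mice, against 97.4, 107 and 142 CPM in AKT(E17K) mice. Mouse m117 was the highest of the 6 for both, and the groups overlapped, with differences of 0.25 ± 0.33 for Notch1 and 0.60 ± 0.37 for Notch3 (edgeR adjusted p = 0.883 and 0.738). Notch2 averaged 5.04 ± 0.757 CPM in AKT(E17K) with TAL1 mice and 5.82 ± 3.16 CPM in AKT(E17K) mice. Rbpj averaged 96.7 ± 8.36 CPM in AKT(E17K) with TAL1 mice and 85.2 ± 28.0 CPM in AKT(E17K) mice. Maml1, too low to be tested here, averaged 2.23 ± 1.94 CPM in AKT(E17K) with TAL1 mice and 2.45 ± 1.80 CPM in AKT(E17K) mice.

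Of the markers of early thymocytes 0 of 4 tested were called by edgeR between these mice, but their sum, which is mainly Il2ra, differed without overlap. It was 524, 1378 and 333 CPM in AKT(E17K) with TAL1 mice m116, m117 and m119, against 69.5, 71.1 and 71.0 CPM in AKT(E17K) mice m121, m122 and m124, and its part in the result was not tested. Il2ra was at 308 to 1326 CPM in AKT(E17K) with TAL1 mice and 39.1 to 64.3 CPM in AKT(E17K) mice, the pathway target with the smallest p in this comparison (3.86 ± 0.54, unadjusted p = 4.06e-05, edgeR adjusted p = 0.218). Kit and Erg of the same list were too low to be tested, and Erg was at 0 in AKT(E17K) with TAL1 mice. B cell markers, all too low to be tested, summed to 0.466 to 7.75 CPM in AKT(E17K) with TAL1 mice and 12.6 to 24.3 CPM in AKT(E17K) mice. Thymic epithelium markers summed to 7.06 to 8.80 CPM and 9.77 to 35.2 CPM in these groups. Neither overlapped, and their part in the result was not tested. The sums of the remaining lists overlapped. Stromal markers summed to 12.6 to 28.2 CPM in AKT(E17K) with TAL1 mice and 11.1 to 411 CPM in AKT(E17K) mice. The highest was mouse m121, which was also the highest in myeloid markers (776 CPM). None of the 42 further pathway genes tested was called by edgeR. After Il2ra the target with the smallest p was Trib2, a pseudokinase named after its values were seen, at 167 ± 66.5 CPM in AKT(E17K) with TAL1 mice and 29.6 ± 12.53 CPM in AKT(E17K) mice (2.47 ± 0.40, edgeR adjusted p = 0.218). The smallest p of the other lists belonged to Spen among nuclear partners (0.50 ± 0.19), Mfng among processing genes (-0.68 ± 0.36), Dtx3 among inhibitors (0.77 ± 0.43) and Jag1 among ligands (0.69 ± 0.62).

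In mice without AKT(E17K), none of the 8 tested NOTCH genes differed between the TAL1 and empty vector groups by the test. edgeR called 0 of them, 0 had an unadjusted p under 0.05 and DESeq2 called 0, where 5.04% of all 12357 genes were called, 2.16% higher and 2.88% lower. The median log2 fold change was -0.03 over the 8 genes and close to 0 over all genes. Hes1 had 17.6, 64.8 and 7.28 CPM in TAL1 mice M317, M318 and M319, against 21.3, 6.69 and 7.36 CPM in empty vector mice. Mouse M318 stood alone, and the difference of 1.30 ± 0.65 (edgeR adjusted p = 0.329) was 0.03 without mouse M318. The same mouse had 368 CPM of summed myeloid markers, against 9.44 and 12.9 CPM in the other TAL1 mice and 14.1 to 28.8 CPM in empty vector mice, and the part of this in its Hes1 level was not tested.

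Dtx1 had 8.29, 24.9 and 17.9 CPM in TAL1 mice, against 26.6, 31.1 and 23.8 CPM in empty vector mice. Mouse M318 overlapped the empty vector group, and the difference was -0.67 ± 0.32 (edgeR adjusted p = 0.303). Maml1 averaged 14.1 ± 3.21 CPM in TAL1 mice and 21.3 ± 7.96 CPM in empty vector mice (SD, n = 3 each), a difference of -0.58 ± 0.29 (edgeR adjusted p = 0.338). Of the receptors, Notch1 averaged 8.80 ± 1.65 CPM in TAL1 mice and 8.91 ± 2.19 CPM in empty vector mice, Notch2 19.5 ± 7.97 CPM in TAL1 mice and 20.3 ± 2.585 CPM in empty vector mice, and Notch3 22.3 ± 2.39 CPM in TAL1 mice and 20.4 ± 8.20 CPM in empty vector mice. All 3 groups of values overlapped. Rbpj averaged 104 ± 2.68 CPM in TAL1 mice and 109 ± 10.1 CPM in empty vector mice, and Ptcra 7.62 ± 2.47 CPM in TAL1 mice and 5.83 ± 0.863 CPM in empty vector mice.

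Heyl and Nrarp were too low for the test in this table. Heyl had 0, 0 and 2 counts in TAL1 mice, against 16, 1 and 11 counts in empty vector mice. These counts overlapped, but in CPM the highest TAL1 mouse was at 0.180 and the lowest empty vector mouse at 0.257. Genes without overlap were not counted over the whole table. The ratio of TAL1 to empty vector was 0.0412, with an exact 95% interval of 0.00476 to 0.163 that covers counting error only. Nrarp had 1 count over the 3 TAL1 mice and 0 over the empty vector mice, where 3 counts would be 0.207 CPM over the group.

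Of 46 further pathway genes tested in this comparison 3 were called, all lower in TAL1 mice, a share close to the 5.04% of all genes called. Il7r, the interleukin-7 receptor and a NOTCH target, averaged 36.3 ± 5.48 CPM in TAL1 mice and 131 ± 21.5 CPM in empty vector mice (-1.84 ± 0.16, edgeR adjusted p = 0.000219). Lfng, the Fringe glycosyltransferase that tunes NOTCH1 to Delta ligands, averaged 8.17 ± 4.78 CPM in TAL1 mice and 38.3 ± 14.7 CPM in empty vector mice (-2.20 ± 0.39, edgeR adjusted p = 0.00609). Maml2, a Mastermind coactivator like Maml1, averaged 19.2 ± 3.98 CPM in TAL1 mice and 41.3 ± 6.43 CPM in empty vector mice (-1.10 ± 0.21, edgeR adjusted p = 0.00907). The groups did not overlap for any of the 3. The list of 6 early thymocyte markers, which holds Il7r, summed to 57.6 to 141 CPM in TAL1 mice and 158 to 231 CPM in empty vector mice, but Il7r was the only 1 of its 4 tested markers that was called. Of 7 double-positive markers 3 were called higher, among them Cd8b1 (0.30) and Dntt (0.61), and their part in these results was not tested.

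The difference between the TAL1 comparison with AKT(E17K) and the one without was tested over the 12 mice. edgeR called 0 of the 10 genes, where 0.164% of all 10947 genes were called, all higher. Of the 10 genes 2 had an unadjusted p under 0.05 in edgeR, as did 1189 of all genes. DESeq2 called 2 of the 10 and 186 of all genes. Dtx1 averaged higher in AKT(E17K) with TAL1 mice than in AKT(E17K) mice and lower in TAL1 mice than in empty vector mice. Neither of these was called. The difference of the 2 log2 fold changes was 2.0 ± 0.56 (edgeR adjusted p = 0.200, DESeq2 adjusted p = 0.0248). For Heyl it was 5.94 ± 1.17 (edgeR adjusted p = 0.0764, DESeq2 adjusted p = 0.000882), which rests on 2 counts in TAL1 mice and so depends on the prior count. Leaving out AKT(E17K) mouse m124 brought Heyl past the threshold (edgeR adjusted p = 0.0355), as did keeping genes of low count (0.00297). The further pathway gene with the smallest p was Trib2, a NOTCH target (2.56 ± 0.51, edgeR adjusted p = 0.0764), and 0 of 48 were called.

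Levels were set across the 9 groups and between genes as CPM per kilobase of exon over the 22729 common symbols, a scale on which the experiment and the group cannot be told apart between tables. On it Notch1 averaged 47.4 ± 22.6 in AKT(E17K) with TAL1 mice and 37.9 ± 8.37 in AKT(E17K) mice, which overlapped, then 12.9, 12.0, 10.2, 9.44 and 8.55 in ProT cells at 12, 24, 18, 0 and 6 h, and 0.735 ± 0.139 in TAL1 mice and 0.763 ± 0.188 in empty vector mice, which overlapped. Notch2 was lowest in the AKT(E17K) mice, where Notch1 was highest, with 3.13 to 4.46 in ProT cells, 2.16 in TAL1 mice and 2.29 in empty vector mice, and 0.480 in AKT(E17K) with TAL1 mice and 0.516 in AKT(E17K) mice. Notch3 was at 22.5 ± 13.4 in AKT(E17K) with TAL1 mice and 14.2 ± 3.99 in AKT(E17K) mice, 3.28 in TAL1 mice and 3.06 in empty vector mice, and 1.60 to 1.90 in ProT cells, whose 5 times all overlapped their neighbours. Rbpj kept within 6.58 to 13.1 over all 9 groups, the smallest ratio of highest to lowest among the 10 genes, and Maml1 spanned 0.424 in AKT(E17K) with TAL1 mice to 4.68 in empty vector mice.

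**Figure D4:**
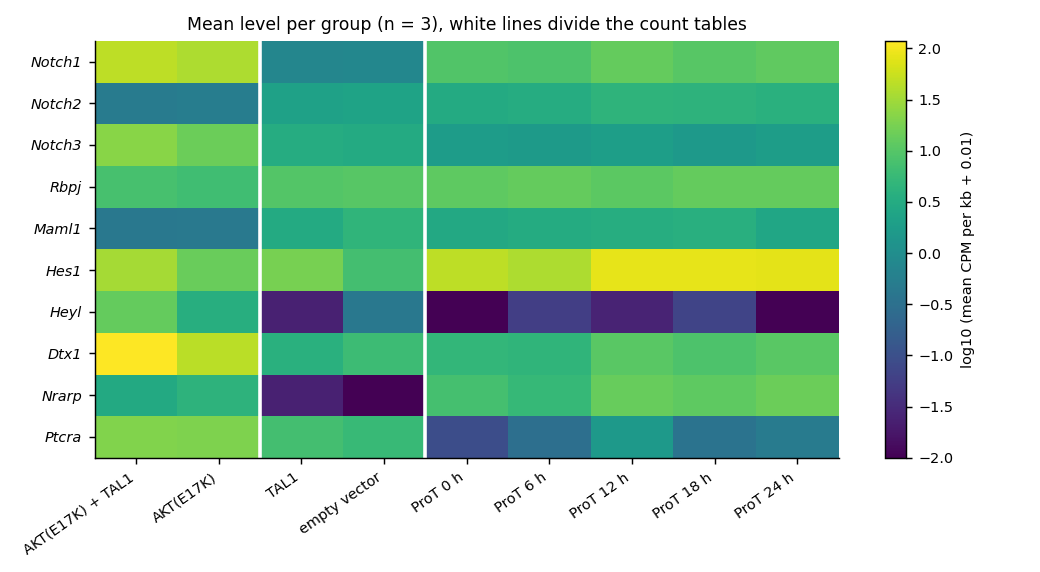
Mean level of each gene in each group of 3 libraries, coloured by log10 of CPM per kilobase plus 0.01, with white lines between the 3 count tables. Dtx1 is brightest in AKT(E17K) with TAL1 mice (mean 118.9 CPM per kilobase) and Hes1 in ProT cells at 12 h (85.3), while Heyl and Nrarp are darkest where they had 0 counts.

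The targets did not share 1 order of groups. Dtx1 was highest in AKT(E17K) with TAL1 mice at 118.9 ± 79.5 CPM per kilobase, then 45.5 ± 5.29 in AKT(E17K) mice, each apart from the next group, and lowest in TAL1 mice at 3.84 ± 1.89. Heyl had the same leading pair, at 12.8 ± 9.35 in AKT(E17K) with TAL1 mice and 3.56 ± 1.24 in AKT(E17K) mice. Ptcra did too, at 19.8 ± 7.39 in AKT(E17K) with TAL1 mice and 19.4 ± 2.09 in AKT(E17K) mice, which overlapped. Hes1 was highest in ProT cells at 12 h, at 85.3 ± 10.7, with 18 and 24 h overlapping it, and reached 33.7 ± 13.7 in AKT(E17K) with TAL1 mice and 7.07 ± 4.98 in empty vector mice. Nrarp was highest in ProT cells at 24 h, at 14.7 ± 3.38, against 2.98 ± 0.567 in AKT(E17K) with TAL1 mice and 4.26 ± 2.17 in AKT(E17K) mice. The overlapping Gm38287 was counted in ProT cells and had 0 counts in TAL1 and empty vector mice. No value was read for it in AKT(E17K) mice, so the place of Nrarp across the count tables is uncertain. With 1 TMM scaling over all 27 libraries, 9 of the 10 genes had the same highest group and 7 the same order of groups.

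**Figure D5:**
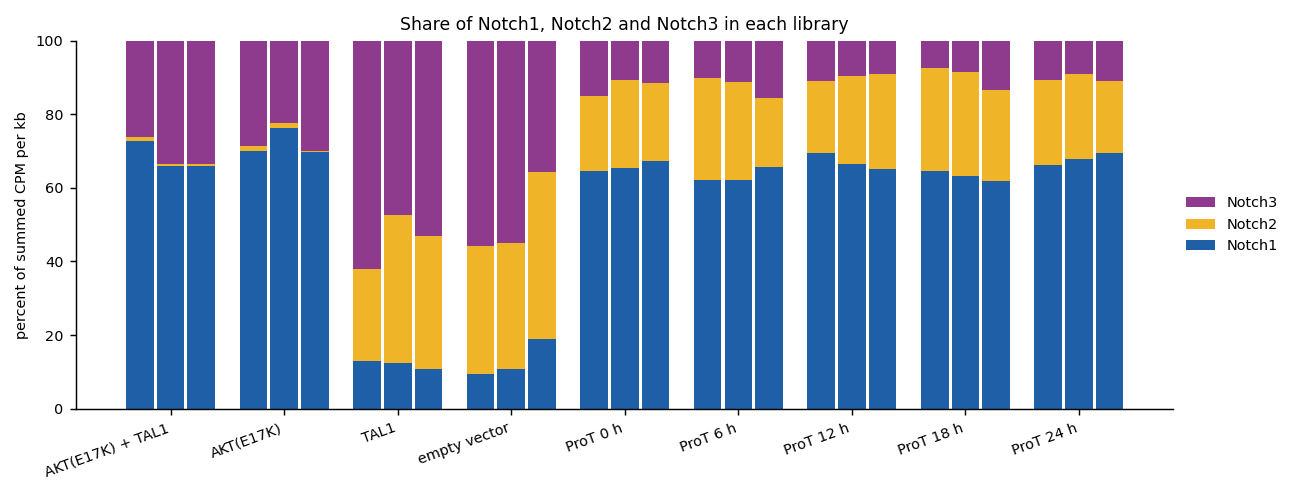
Share of Notch1, Notch2 and Notch3 in their summed CPM per kilobase, in percent, with 1 bar for each library and 3 bars a group. Notch1 is the largest part in every AKT(E17K) and ProT library, at 61.9% or more, and the smallest in TAL1 and empty vector mice, at 18.9% or less.

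The make-up of the 3 receptors separated the tables. Notch1 was 68.2% ± 3.98 of their summed CPM per kilobase in AKT(E17K) with TAL1 mice and 72.0% ± 3.64 in AKT(E17K) mice, with Notch3 at 31.0% ± 4.27 and Notch2 at 0.768% in AKT(E17K) with TAL1 mice, and Notch3 at 26.96% ± 3.92 and Notch2 at 1.06% in AKT(E17K) mice. In TAL1 mice Notch3 led with 54.1% ± 7.53, Notch2 had 33.8% ± 7.94 and Notch1 12.0% ± 1.02, and in empty vector mice Notch3 had 48.8% ± 11.3, Notch2 38.2% ± 6.24 and Notch1 13.0% ± 5.11. In ProT cells Notch1 held 65.7%, 63.4%, 67.0%, 63.2% and 67.8% at 0, 6, 12, 18 and 24 h, with Notch2 at 21.8% to 26.9% and Notch3 at 9.83% to 12.45%. For every receptor the shares of mice with and without TAL1 overlapped within each table.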

How the data were processed

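The authors deposited 3 tables of raw read counts per gene, 1 for each experiment, with 46078 genes in the tables of TAL1 and empty vector mice and of ProT cells and 22906 in that of AKT(E17K) mice. Total RNA was extracted with a Promega Maxwell simplyRNA kit, per the labels' protocols. The submitters' processing notes list the tools HTSeq, SAMtools, HISAT2 and FastQC and the builds GRCm38 and mm10; versions, annotation and strand setting are not given in the sources used here.

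The 5 summary lines that name no gene entered neither library sizes nor tests, and 27 symbols turned into dates by a spreadsheet were restored from gene IDs. Each table was fitted on its own with edgeR 4.0.16 (R 4.3.3): filterByExpr, TMM scaling, quasi-likelihood F test, Benjamini-Hochberg adjustment over all genes tested and a threshold of 0.05. The standard error (SE) of a log2 fold change was taken from the F statistic. The difference between the TAL1 comparisons was fitted over the 12 mice on the 22729 genes named in both mouse tables. CPM are TMM-scaled within a table, whereas CPM per kilobase use GENCODE M21 exon lengths and no TMM. The scripts were tested on simulated counts.

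No clear pairing of ProT libraries by replicate number was seen, though weak correlations cannot exclude a pairing. Of 30 pairs with the same number 1 had a correlation of deviations above 0.1 (range -0.14 to 0.21), so the number was not a block. The 10 genes, the 55 pathway genes and the marker lists were chosen with earlier results of these data known. All 10 genes were named, and of each pathway list up to 3 called genes with the smallest adjusted p, or the one with the smallest p where none was called. Alternatives were edgeR without TMM or with RLE scaling, no filter on low counts, DESeq2 1.42.0, other sets of samples in the fit, the replicate block and leaving out each library. Intervals and the floor of 3 counts cover counting error only.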

Additional observations from a re-analysis of the deposited data

Results flagged for a closer look

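The mean CPM of Heyl differed in opposite directions in the 2 comparisons of TAL1, but neither difference is established. With AKT(E17K) it was not called (edgeR adjusted p = 0.527), and without AKT(E17K) Heyl was too low to be tested. The groups did not overlap in CPM, by a narrow margin in both. Without AKT(E17K) the unscaled counts did overlap, at 0, 0 and 2 against 16, 1 and 11. How many of all genes separated in this way was not counted. Heyl had 27.5 to 111 CPM in AKT(E17K) with TAL1 mice, against 12.6 to 25.3 CPM in AKT(E17K) mice. It had 2 summed counts in TAL1 mice, against 28 in empty vector mice. The difference between the log2 fold changes was 5.94 ± 1.17 (edgeR adjusted p = 0.0764), which missed the threshold.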

How the results depend on the processing

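The calls of Hes1, Dtx1, Nrarp and Notch1 at 12 h in ProT cells, against 0 h and against 6 h, held under each setting run. The calls of Notch2, of Dtx1 at 18 h and of Notch1 at 24 h were lost under some, as given above. The cause was not tested. Without a filter on low counts, calls came to 1 of the NOTCH genes (Hes1) and 1107 of all genes between TAL1 and empty vector mice, 30 of all genes between AKT(E17K) with TAL1 and AKT(E17K) mice, 4 NOTCH genes at 18 h, and 1 NOTCH gene and 58 of all genes for the difference between TAL1 comparisons. DESeq2 called 76 of all genes between AKT(E17K) with TAL1 and AKT(E17K) mice, 1 of all genes at 6 h, 1 NOTCH gene at 18 h, and 2 NOTCH genes and 186 of all genes for the difference between TAL1 comparisons. With all 12 mice in 1 fit, 24 of all genes were called between AKT(E17K) with TAL1 and AKT(E17K) mice and 5 between TAL1 and empty vector mice. With only the 2 times compared, 4 NOTCH genes and 2244 of all genes were called at 18 h and 573 of all genes at 12 h against 6 h. Without TMM, 4 NOTCH genes were called at 18 h, Notch2 (0.55, edgeR adjusted p = 0.0333) and Rbpj (0.41, edgeR adjusted p = 0.0293) were also called at 24 h, and the log2 fold change changed sign for Ptcra with AKT(E17K) (0.0241), Dtx1 at 6 h (0.0318), Notch3 at 18 h (0.0641), Maml1 at 24 h (0.10), and Notch2 (0.0224) and Hes1 (0.0079) in the difference between TAL1 comparisons; none of these was called.

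Leaving out 1 library at a time gave 0 to 8 called genes of all between AKT(E17K) with TAL1 and AKT(E17K) mice, 337 to 661 between TAL1 and empty vector mice, 819 to 1521 for 12 h, between 419 and 1006 for 18 h, 1447 to 2281 for 24 h, between 657 and 2434 for 12 h against 6 h and 2 to 173 for the difference between TAL1 comparisons. It gave 1 to 2 NOTCH genes at 18 h and 0 to 1 for that difference. The sign changed for genes that were not called. Between AKT(E17K) with TAL1 and AKT(E17K) mice the ranges were -0.15 to 0.45 for Notch1, -0.57 to 0.18 for Notch2, -0.0585 to 0.39 for Rbpj and -0.34 to 0.13 for Ptcra. Between TAL1 and empty vector mice they were -0.20 to 0.15 for Notch1, -0.29 to 0.24 for Notch2, -0.15 to 0.41 for Notch3 and -0.12 to 0.016 for Rbpj. In ProT cells they were -0.12 to 0.21 for Notch2, -0.33 to 0.0485 for Notch3 and -0.62 to 0.27 for Dtx1 at 6 h, -0.056 to 0.12 for Rbpj at 12 h, -0.43 to 0.13 for Notch3 at 18 h, and -0.037 to 0.23 for Notch3 and -0.37 to 0.0476 for Maml1 at 24 h. For the difference between TAL1 comparisons they were -0.13 to 0.49 for Notch1, -0.49 to 0.26 for Notch2, -0.0442 to 0.79 for Notch3 and -0.84 to 1.17 for Hes1.

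With the replicate block, ProT calls were 0, 5, 2, 4, 5 and 5 NOTCH genes at 6, 12, 18 and 24 h, at 12 h against 6 h and over all times, as without it, and 0, 1639, 1234, 2662, 1542 and 2512 of all genes. Of the 15 libraries 4 correlated best with their own number. Leaving out Nrarp, an alternative chosen after seeing the data, gave 4 NOTCH genes at 12 h and 3 at 24 h. Counts were too low to test Heyl and Ptcra in ProT cells, Heyl and Nrarp in TAL1 and empty vector mice and Maml1 in AKT(E17K) mice. The cause of the low counts was not tested. Nrarp had 0 and 1 summed counts in empty vector and TAL1 mice, against 90 and 58 in AKT(E17K) and AKT(E17K) with TAL1 mice, which had fewer counts per library.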
